A study of Mus musculus with 4 samples.

Results

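The Cyp2c genes are a mouse family of cytochrome P450 enzymes, and 9 of them were followed here by their listed symbols: Cyp2c29, Cyp2c37, Cyp2c38, Cyp2c39, Cyp2c40, Cyp2c50, Cyp2c54, Cyp2c55 and Cyp2c69. They are 9 of the 32285 genes in the count matrices and 9 of the 15 Cyp2c genes listed there. The nuclei came from frozen liver, and all mice were male, wild type and of the inbred strain C57BL6/J. The aged group was 30 months old and the young group 2 months old, with 2 libraries in each, called aged replicates 1 and 2 and young replicates 1 and 2. No mouse carried an introduced allele or received an agent according to the labels, which also do not say whether each library came from 1 animal, so p-values measure only the spread between these libraries, which may be technical. The question was how each gene was distributed along the liver lobule and between the 4 libraries, each library given apart.

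Cytochrome P450 enzymes sit in the endoplasmic reticulum and oxidise drugs, steroids and fatty acids, taking electrons from the reductase Por. The Cyp2c enzymes of mice include epoxygenases, which turn arachidonic acid into epoxyeicosatrienoic acids, and hydroxylases of the same fatty acid. In the liver lobule blood flows from the portal vein to the central vein, and hepatocytes near the central vein (pericentral) are known for more P450 enzyme than those near the portal vein (periportal). Several mouse Cyp2c genes are also known to differ between the sexes under the control of growth hormone.

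All 9 genes lie in one cluster on chromosome 19 of mm10, between positions 39007019 and 40113950 (1106.932 kb), in the order Cyp2c55, Cyp2c29, Cyp2c38, Cyp2c39, Cyp2c40, Cyp2c69, Cyp2c37, Cyp2c54 and Cyp2c50. Each is annotated as protein coding in GENCODE M21. Cyp2c40 spans chr19:39767071-39812814 and Cyp2c69 spans chr19:39842814-39886799, neighbours on the minus strand. Cyp2c38 spans chr19:39389556-39463075 on the minus strand, and Cyp2c29 spans chr19:39269405-39330713 on the plus strand. The start of Cyp2c29 overlaps the pseudogene Cyp2c53-ps on the same strand, which the matrices did not list, so reads of the overlap cannot be told apart.

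The genes are near-identical copies in places, and counts of such copies are uncertain. Over the coding sequence Cyp2c37 and Cyp2c50 shared 96.1% of aligned bases, Cyp2c38 and Cyp2c39 94.2%, and Cyp2c29 and Cyp2c38 89.1%. Of all 90-base windows of the spliced transcript, 49.1% of those of Cyp2c40 and 38.6% of those of Cyp2c69 occurred unaltered in another Cyp2c transcript (one or more of Cyp2c40, Cyp2c67, Cyp2c68 and Cyp2c69). The share was 12.01% for Cyp2c50, 9.31% for Cyp2c54, 6.74% for Cyp2c37, 0.52% for Cyp2c39, 0.32% for Cyp2c38, and 0 for Cyp2c29 and Cyp2c55. In the last 500 bases, nearest to the captured 3′ end, the share was 49.8% for Cyp2c40, 23.9% for Cyp2c69, 8.29% for Cyp2c54, 5.12% for Cyp2c37 and 3.66% for Cyp2c50. It was 0 there for Cyp2c29, Cyp2c38, Cyp2c39 and Cyp2c55. A read inside a shared window cannot be assigned to 1 gene. Introns, which supply much of nuclear RNA, were not examined for shared windows.

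Promoter sequences are shown for 4 genes: for Cyp2c40 and Cyp2c69, whose levels moved together across libraries, for Cyp2c38, highest in aged replicate 1, and for Cyp2c29, lower in both aged libraries. Each runs from 250 bases before to 50 bases after the annotated start (RefSeq, GRCm38.p6), 5′ to 3′ on the gene's strand, and capitals mark the motif CAAAGTC. The RefSeq start of Cyp2c29 lies inside the span that GENCODE gives for the gene.
Cyp2c40, chr19:39812765-39813064, minus strand: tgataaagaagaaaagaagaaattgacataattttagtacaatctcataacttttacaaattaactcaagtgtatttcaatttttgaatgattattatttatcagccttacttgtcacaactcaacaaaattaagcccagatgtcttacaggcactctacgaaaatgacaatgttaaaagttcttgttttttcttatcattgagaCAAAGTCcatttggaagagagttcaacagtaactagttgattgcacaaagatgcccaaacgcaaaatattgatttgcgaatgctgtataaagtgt
Cyp2c69, chr19:39886720-39887019, minus strand: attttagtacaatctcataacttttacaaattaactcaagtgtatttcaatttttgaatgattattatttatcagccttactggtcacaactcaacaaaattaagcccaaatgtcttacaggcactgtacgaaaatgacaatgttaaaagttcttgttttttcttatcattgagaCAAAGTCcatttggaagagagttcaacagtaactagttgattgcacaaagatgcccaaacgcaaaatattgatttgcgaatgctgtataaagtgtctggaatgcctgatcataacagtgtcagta
Cyp2c38, chr19:39463026-39463325, minus strand: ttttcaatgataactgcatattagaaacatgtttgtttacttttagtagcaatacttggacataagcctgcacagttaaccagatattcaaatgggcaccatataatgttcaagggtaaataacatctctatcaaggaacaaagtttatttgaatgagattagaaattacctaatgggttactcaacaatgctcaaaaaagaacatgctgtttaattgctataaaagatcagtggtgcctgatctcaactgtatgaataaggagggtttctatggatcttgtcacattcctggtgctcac
Cyp2c29, chr19:39286835-39287134, plus strand: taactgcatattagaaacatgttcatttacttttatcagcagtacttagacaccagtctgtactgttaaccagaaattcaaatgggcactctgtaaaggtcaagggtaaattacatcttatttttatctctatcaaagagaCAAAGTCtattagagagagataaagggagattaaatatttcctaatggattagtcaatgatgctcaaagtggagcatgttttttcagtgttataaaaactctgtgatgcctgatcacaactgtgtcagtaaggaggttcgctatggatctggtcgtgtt

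With gaps counted as differences, the promoters of Cyp2c40 and Cyp2c69 were identical at 267 of 330 aligned columns (80.9%). Those of Cyp2c29 and Cyp2c38 were identical at 226 of 322 (70.2%). The printed stretches of Cyp2c40 and Cyp2c69 are shifted against each other, and nearly all of their differing columns are overhanging ends. Where the 2 stretches face each other they are almost the same. The motif CAAAGTC began 45 bases before the start of Cyp2c40, 75 bases before that of Cyp2c69 and 109 bases before that of Cyp2c29. In Cyp2c40 and Cyp2c69 it is the same site of the shared sequence, and the distances differ because the annotated starts do. The longer motif CAAAGTCCA, known as a binding motif of the liver nuclear receptor Hnf4a, occurred in the promoters of Cyp2c40 and Cyp2c69. RefSeq promoters matched 8 of the 9 genes, with 2 starts for Cyp2c39 and none for Cyp2c54. On either strand CAAAGTC stood in 6 of these 9 promoters, and in 4.44% of the 32851 promoters of the table. CAAAGTCCA stood in 2 of the 9 and in 0.475% of all, and it contains the shorter motif. TATAAA stood in 6 of the 9 and in 13.6% of all. The motifs were chosen after the sequences were seen, the promoters are related copies, and a match is a description of letters only.

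The matrices held 11362 and 14267 barcodes in the aged libraries and 2666 and 14718 in the young libraries, where the labels state 10000 nuclei loaded per sample. A UMI marks 1 captured RNA molecule, and the libraries held between 11799751 and 54777101 of them. After filters, 7216, 11892, 1935 and 12219 nuclei were kept in aged replicates 1 and 2 and young replicates 1 and 2, and 5527, 8305, 1371 and 8898 of these were hepatocyte-like. All 12 hepatocyte markers were detected in hepatocyte-like nuclei of every library, with a summed level of 19610 to 25390 UMIs per 1000000 (CPM), against 168 to 314 CPM for the 10 cholangiocyte, 162 to 297 CPM for the 12 macrophage and 77.0 to 208 CPM for the 12 endothelial markers. Libraries shared 8 to 67 barcodes per pair. The libraries did not mix: each hepatocyte-like cluster held mostly nuclei of 1 library, and Cyp2c29, Cyp2c38, Cyp2c40 and Cyp2c69 were among the leading genes of such clusters. Median depth differed, at 2111 and 2986 UMIs per hepatocyte-like nucleus in aged replicates 1 and 2 and 3575 and 924 in young replicates 1 and 2.

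The mitochondrial limit of 5% was exceeded by 3424 of 11362 barcodes of aged replicate 1 and 843 of 14267 of aged replicate 2, against 689 of 2666 of young replicate 1 and 868 of 14718 of young replicate 2, so the share was larger in both libraries numbered 1. Aged replicate 1 stood apart from the other libraries in some, but not all, genes that differ between the sexes. Cyp2b9, a P450 gene known for higher expression in female liver, had 845 CPM there and 1.94 CPM in aged replicate 2, against 1.18 and 0.20 CPM in young replicates 1 and 2. Hsd3b5, a steroid dehydrogenase gene known for higher expression in male liver, had 0.59 CPM in aged replicate 1 and 178 CPM in aged replicate 2, against 295 and 308 CPM in the young libraries. These are extreme examples, and other genes did not follow. Cyp3a41a, listed as female-biased, was at 0.059 CPM in aged replicate 1. Bcl6, listed as male-biased, had 267 CPM in aged replicate 1 and 241 CPM in aged replicate 2, against 239 and 184 CPM in the young libraries. The Y-linked gene Uty was found in all 4 libraries, at 244 and 313 CPM in the aged and 416 and 402 CPM in the young libraries. Xist, the RNA of the inactive X chromosome, was at 1.59 and 1.27 CPM in the aged and 6.80 and 1.51 CPM in the young libraries. Each Cyp2c result below is therefore given per library.

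The genes were also counted in the other cell classes, where free RNA in the suspension can place UMIs. In endothelial-like nuclei Cyp2c29 was counted at 170 and 212 CPM in aged replicates 1 and 2 and 357 and 852 CPM in young replicates 1 and 2. In periportal hepatocyte-like nuclei it was counted at 453 and 25.2 CPM in the aged and 194 and 349 CPM in the young libraries, so the endothelial-like level was the higher one in 3 of the 4 libraries. In stellate/fibroblast-like nuclei it was at 83.6 and 55.8 CPM in the aged and 728 and 881 CPM in the young libraries. The aged nuclei of this class lay mostly in 1 cluster (315 and 1154 nuclei, against 4 and 76 in the other) and the young ones mostly in the other (270 and 1352 nuclei, against 106 and 171), which had the higher level of hepatocyte markers, so the ages are not compared in this class. A periportal level at or under that of endothelial-like nuclei cannot be read as expression. Over all other classes with at least 10 UMIs, Cyp2c29 stood at 14.0% to 87.2% of its hepatocyte-like level, with a median of 64.6%.

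In hepatocyte-like nuclei the aged and young libraries overlapped for 8 of the 9 genes, and Cyp2c29 alone was lower in both aged libraries. Levels are UMIs per 1000000 of all UMIs in those nuclei, and since RNA was captured at its 3′ end and partly from introns, they are compared within a gene only. Cyp2c29, an epoxygenase, had 595 and 290 CPM in aged replicates 1 and 2, against 1160 and 1286 CPM in young replicates 1 and 2. Both aged libraries were below both young ones, as were 26.6% of all genes tested. Cyp2c38, another epoxygenase, had 1590 and 187 CPM in the aged libraries, against 211 and 411 CPM in the young libraries. Aged replicate 1 was far above the others, and the other aged library was the lowest of the 4. Cyp2c39, which oxidises retinoic acid, had the same order of libraries, with 28.8 and 2.94 CPM in the aged and 5.17 and 8.23 CPM in the young libraries.

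Cyp2c50, an epoxygenase, had 143 and 55.2 CPM in the aged libraries, against 94.3 and 79.2 CPM in the young libraries. Cyp2c54, also an epoxygenase, had 278 and 122 CPM in the aged, against 192 and 140 CPM in the young libraries. For both genes the aged libraries were the highest and the lowest of the 4, so the groups overlapped fully. Cyp2c37, a hydroxylase of arachidonic acid, had 424 and 117 CPM in the aged, against 288 and 77.5 CPM in the young libraries, and replicate 1 was the higher one at both ages. Cyp2c55, a hydroxylase known for its induction by drugs, was low in all libraries, with 3.46 and 4.33 CPM in the aged (59 and 143 UMIs) and 3.10 and 4.31 CPM in the young libraries (21 and 43 UMIs).

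Cyp2c40, which hydroxylates arachidonic acid, and its neighbour Cyp2c69 split the libraries by replicate number. Cyp2c40 had 168 CPM in aged replicate 1 and 1.30 CPM in aged replicate 2, against 385 and 9.83 CPM in young replicates 1 and 2. Cyp2c69 had 138 and 1.00 CPM in the aged, against 120 and 5.32 CPM in the young libraries. The library numbered 1 was the high one at both ages for both genes.

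**Figure D1:**
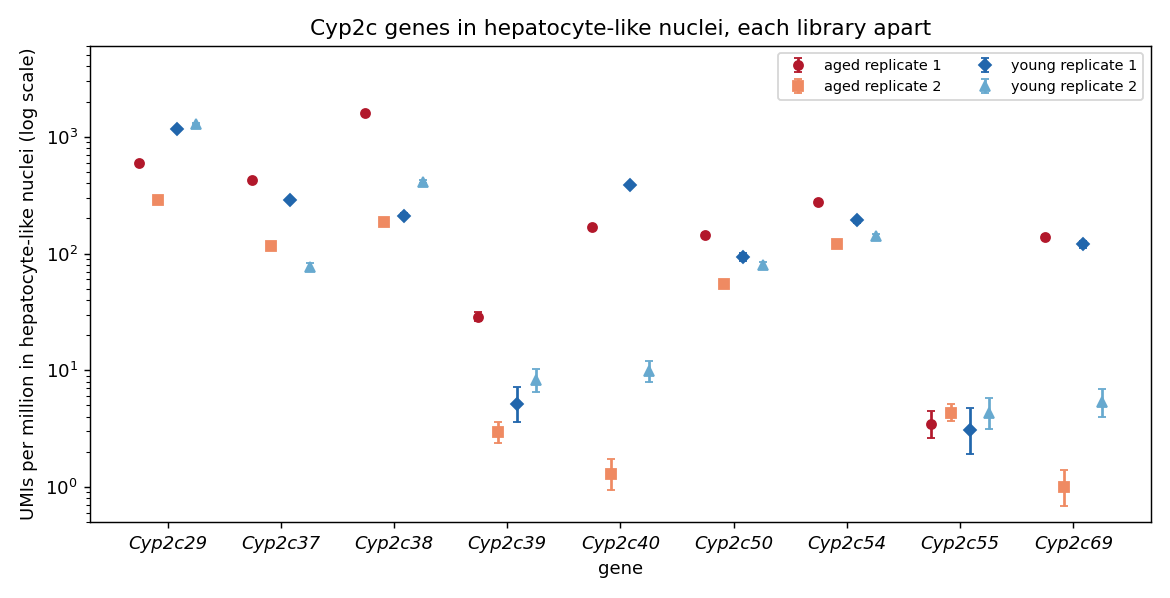
Level of each Cyp2c gene (UMIs per 1000000, log axis) in hepatocyte-like nuclei of the 4 libraries. Bars are exact Poisson intervals of the count (95%, counting error only). Cyp2c40 runs from 1.30 to 385 CPM and Cyp2c55 from 3.10 to 4.33 CPM.

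The aged and young libraries were compared in an edgeR quasi-likelihood fit over 15290 genes, in which 6 genes (0.0392%) passed an adjusted p of 0.05, 5 higher (0.0327%) and 1 lower (0.00654%) in the aged libraries, and 2824 had an unadjusted p under 0.05. None of the 9 Cyp2c genes passed, with edgeR or with DESeq2, and 1 of them, Cyp2c29, had an unadjusted edgeR p under 0.05. Its log2 fold change, aged over young, was -1.43 (SE 0.50, 95% interval -2.60 to -0.26), with an adjusted p of 0.218 by edgeR and 0.0530 by DESeq2. Its aged and young libraries did not overlap, which held for 50.4% of all genes tested (26.6% below and 23.8% above).

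The other fold changes had wide intervals, so a change of either sign could not be told from none. Cyp2c38 was at 1.60 on the log2 scale (95% interval -0.45 to 3.65) and Cyp2c40 at -1.29 (-5.64 to 3.06). Cyp2c69 was at 0.09 (-4.02 to 4.20), and Cyp2c39 at 1.30 (-0.80 to 3.40). The narrowest intervals were those of Cyp2c54, at 0.28 (-0.83 to 1.39), and Cyp2c50, at 0.22 (-0.90 to 1.34). Over the 9 genes the median was 0.22, against -0.02 over all genes tested. Single libraries moved the values. Without aged replicate 1 Cyp2c40 was at -7.33 and Cyp2c69 at -6.05. Without aged replicate 2 Cyp2c39 was at 2.21, and without young replicate 2 Cyp2c29 was at -1.45. Each of these fits leaves 1 library in an age group, which then has no spread of its own. With no filter on low counts far more of all genes passed than in the main fit, among them Cyp2c38 (1.61) and Cyp2c40 (-1.30).

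The split of Cyp2c40 and Cyp2c69 by replicate number was noticed in these data and is given as a description. Cyp2c40 was 129 times as high in aged replicate 1 as in aged replicate 2, and 39.2 times as high in young replicate 1 as in young replicate 2. For Cyp2c69 these ratios were 139 and 22.6. Of the 15290 genes, 5 (0.0327%) were at least 5 times as high in replicate 1 at both ages after adding 1 CPM: Cyp2c40, Cyp2c69, Ugt2b37, Slc15a2 and Tchh, named because of these values. Both libraries numbered 1 were above both numbered 2 for 4.64% of genes, among them 5 of the 9 Cyp2c genes (Cyp2c37, Cyp2c40, Cyp2c50, Cyp2c54 and Cyp2c69). Cyp2c68, which shares windows with both genes, had 1006 and 181 CPM in the aged and 1209 and 290 CPM in the young libraries. Cyp2c67, which also shares windows, had 370 and 357 CPM in the aged and 886 and 431 CPM in the young libraries, so not every near copy was split in this way. Cyp2b9, high in aged replicate 1, was at 1.18 CPM in young replicate 1, where Cyp2c40 was at 385 CPM. The part of shared sequence in these values was not tested.

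**Figure D2:**
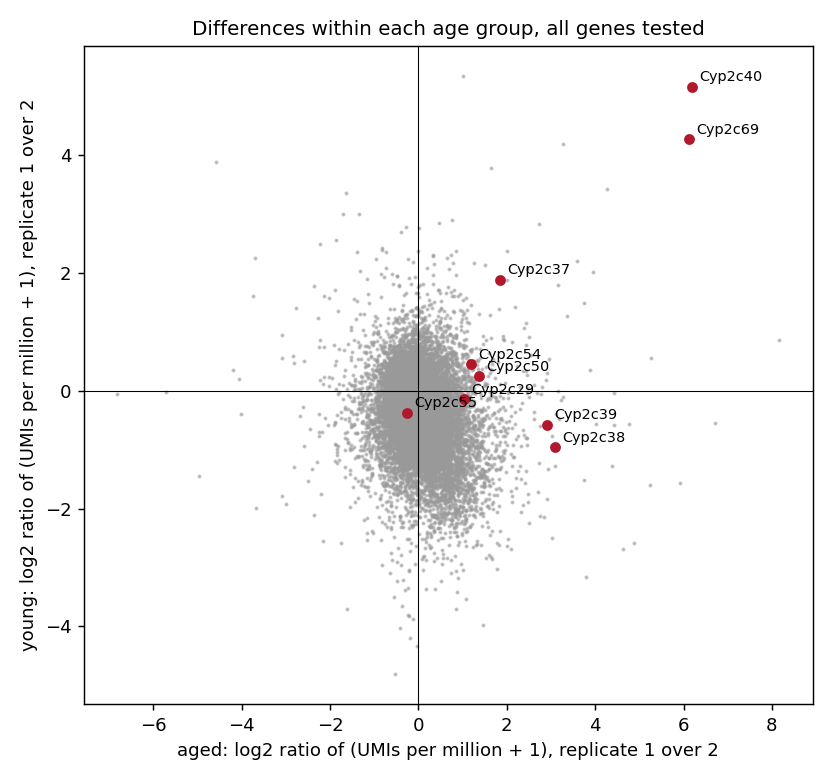
Log2 ratio of replicate 1 over replicate 2 in the aged (x axis) and young libraries (y axis), from UMIs per 1000000 plus 1. Each grey point is 1 of the 15290 genes tested and the red points are the 9 Cyp2c genes. Cyp2c40 and Cyp2c69 lie in the upper right corner, while Cyp2c38 and Cyp2c39 are high along the aged axis alone.

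In single nuclei thinned to 1000 UMIs, Cyp2c40 was detected in 11.4% of hepatocyte-like nuclei of aged replicate 1 (exact binomial 95% interval 10.4 to 12.4%) and 0.112% of aged replicate 2 (0.0481 to 0.220%), against 20.3% of young replicate 1 (18.2 to 22.6%) and 0.782% of young replicate 2 (0.528 to 1.11%). Without thinning the shares were 18.6% and 0.434% in the aged and 40.0% and 0.888% in the young libraries. Thinning left out 1556 and 1129 nuclei of the aged and 68 and 5059 of the young libraries as too shallow. In thinned endothelial-like nuclei the gene was detected in 2.54% and 0% in the aged libraries (3 of 118 and 0 of 617 nuclei), and in 12.5% and 1.51% in the young libraries (5 of 40 and 7 of 465 nuclei). These nuclei had a median of 892 and 1281 UMIs in the aged and 1160 and 1044 in the young libraries. In aged replicate 2 and young replicate 2 the hepatocyte-like share therefore could not be told from background. In young replicate 1 the interval of the endothelial-like share, 4.19 to 26.8%, held the hepatocyte-like one, but it rests on 40 nuclei. By level the classes of young replicate 1 were apart in counting error. Cyp2c40 had 385 CPM (370.6 to 400.3) in its hepatocyte-like and 89.3 CPM (49.98 to 147.3) in its endothelial-like nuclei.

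Nuclei with Cyp2c40 also held Cyp2c69 more often than hepatocyte-like nuclei as a whole, a description of 2 libraries. In aged replicate 1, Cyp2c69 was detected in 30.1% of thinned nuclei with Cyp2c40, and in 9.14% of all thinned hepatocyte-like nuclei. In young replicate 1 it was detected in 14.7% of nuclei with Cyp2c40 and in 8.06% of all. The excess was not particular to Cyp2c40. In young replicate 1 Cyp2c69 was detected in 17.86% of nuclei with Cyp2c50 and 16.5% of those with Cyp2c38, more than with Cyp2c40. In aged replicate 1 it was detected in 24.05% of nuclei with Cyp2c39 and 17.89% of those with Cyp2c37, less than with Cyp2c40. The zone and depth of nuclei enter all of these shares, and the effect of shared windows on them was not tested.

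Every one of the 9 genes was higher in pericentral than in periportal nuclei. Hepatocyte-like nuclei were ranked within each library by the level of 15 pericentral landmark genes less that of 15 periportal ones, none of them a Cyp2c gene. The ranked nuclei were cut into 3 equal parts, and the first and the last were summed as the pericentral and the periportal part. Cyp2c38 had 2885 and 463 CPM in the pericentral part of aged replicates 1 and 2, against 320 and 5.64 CPM in their periportal parts. In young replicates 1 and 2 it had 448 and 884 CPM in the pericentral part, against 16.5 and 63.0 CPM in the periportal part. The pericentral part was thus 9.03 and 82.0 times the periportal part in the aged libraries and 27.2 and 14.0 times in the young libraries.

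Cyp2c29 had 778 and 654 CPM in the pericentral parts of aged replicates 1 and 2, against 453 and 25.2 CPM in their periportal parts. Its pericentral level in the young libraries was 2102 and 2372 CPM, against 194 and 349 CPM in the periportal parts. Aged replicate 1 had the flattest profile of this gene, with a ratio of 1.72, against 25.9 in aged replicate 2, 10.9 in young replicate 1 and 6.81 in young replicate 2. From the most periportal to the most pericentral sixth of nuclei, Cyp2c29 stepped up from 421 to 880 CPM in aged replicate 1 and from 21.8 to 795 CPM in aged replicate 2. Over the same sixths it stepped up from 111 to 2566 CPM in young replicate 1 and from 263 to 2686 CPM in young replicate 2.

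Cyp2c40 and Cyp2c69 kept a pericentral bias where they were abundant. Cyp2c40 had 370 CPM in the pericentral part of aged replicate 1 against 18.0 CPM in its periportal part, and 670 CPM against 59.6 CPM in young replicate 1. Cyp2c69 had 322 CPM in the pericentral part against 9.63 CPM in the periportal part of aged replicate 1, and 236 CPM against 11.7 CPM in young replicate 1. In aged replicate 2 the periportal counts were 3 UMIs for Cyp2c40, a ratio of 9.19 with a counting interval of 2.86 to 47.1, and 2 UMIs for Cyp2c69, a ratio of 11.95 with an interval of 2.99 to 104. In young replicate 2 Cyp2c69 had 3 periportal UMIs and a ratio of 12.3, with an interval of 3.91 to 62.1.

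The remaining genes shared the direction. For Cyp2c37 the ratios were 5.18 and 15.0 in the aged and 12.7 and 7.50 in the young libraries, for Cyp2c50 2.59 and 4.48 in the aged and 4.36 and 2.72 in the young, and for Cyp2c54 1.85 and 5.26 in the aged and 4.51 and 4.79 in the young. Cyp2c39 had ratios of 3.12 in aged replicate 1, 4.74 in young replicate 1 and 3.42 in young replicate 2, and of 37.2 in aged replicate 2, which rests on 2 periportal UMIs (interval 9.98 to 313). Cyp2c55 had ratios of 1.34 (counting interval 0.717 to 2.55) and 8.12 (4.46 to 16.2) in the aged libraries, and of 2.01 (0.948 to 4.55) in young replicate 2. The intervals of aged replicate 1 and young replicate 2 include 1, so the direction for this gene is not resolved by counting in those libraries taken singly. In young replicate 1 its ratio of 8.69 rests on 1 periportal UMI (interval 1.26 to 374). For 7 of the 9 genes aged replicate 1 had the lowest ratio of the 4 libraries, the exceptions being Cyp2c40 and Cyp2c69, where it had the highest. Among other Cyp2c genes it also had the lowest ratio for Cyp2c67 (1.81), Cyp2c68 (1.54) and Cyp2c23 (0.752), but not for Cyp2c70 (0.807). The share over all genes was not counted, and the 9 genes are related copies.

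**Figure D3:**
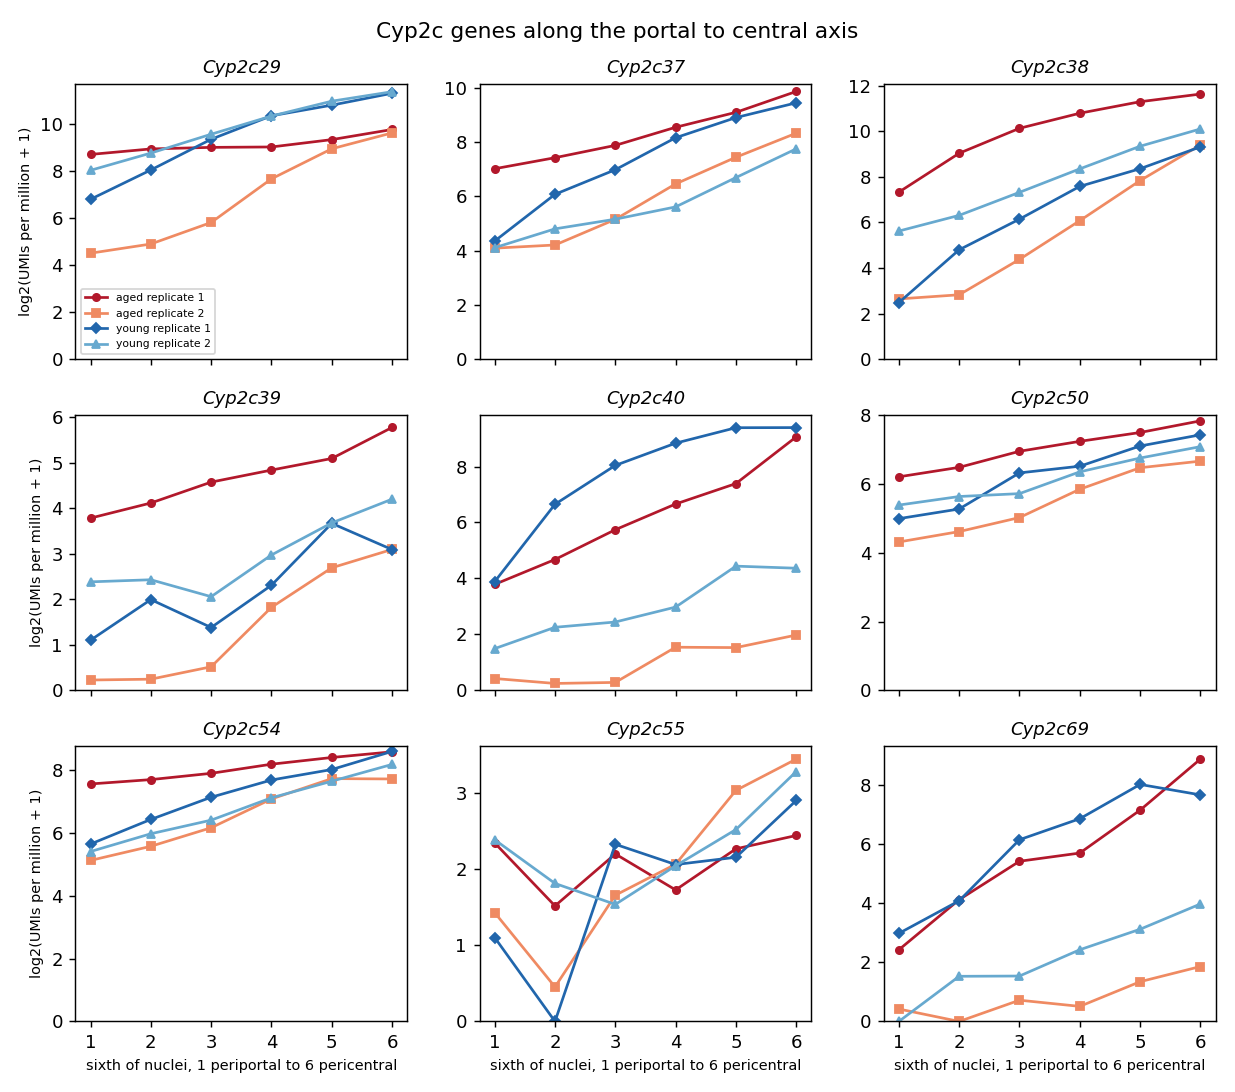
Level of each Cyp2c gene, log2 of UMIs per 1000000 plus 1, in sixths of hepatocyte-like nuclei from periportal (1) to pericentral (6), with 1 line per library. Cyp2c38 climbs in every library, Cyp2c29 climbs least in aged replicate 1, and Cyp2c55 stays below 10 CPM throughout.

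In the edgeR fit with the library as a block, 3015 of 13853 genes (21.8%) passed, 1516 higher (10.9%) and 1499 lower (10.8%) in the pericentral parts. All 9 Cyp2c genes passed as higher. Their median log2 fold change was 2.90, against -0.01 over all genes. Pericentral counts were above periportal ones in all 4 libraries for 18.2% of genes and for each of the 9. The largest changes were those of Cyp2c69, at 4.74 on the log2 scale (95% interval 4.35 to 5.13, adjusted p = 8.337e-08 by edgeR), and Cyp2c38, at 4.30 (3.41 to 5.18, adjusted p = 3.025e-05 by edgeR). Cyp2c40 was at 3.84 (3.42 to 4.26), Cyp2c37 at 3.17 (2.68 to 3.65) and Cyp2c29 at 2.90 (1.81 to 3.98), with edgeR adjusted p-values of 4.724e-07, 3.64e-06 and 0.00152. Cyp2c39, Cyp2c54, Cyp2c50 and Cyp2c55 were at 2.08, 1.88, 1.74 and 1.72. These intervals are not ranges over single libraries. For Cyp2c69 the fit gave a fold of 26.7, while the library ratios were 33.5 and 11.95 in the aged and 20.1 and 12.3 in the young libraries. Without aged replicate 1 all 9 passed again, and without aged replicate 2 Cyp2c55 did not (0.92, edgeR adjusted p = 0.154).

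Set beside endothelial-like nuclei, the pericentral level was the higher one in all 36 pairs of gene and library, while the periportal level was at or under the endothelial-like one in 24 of the 36 (2 of 9 in aged replicate 1, 9 of 9 in aged replicate 2, 5 of 9 in young replicate 1 and 8 of 9 in young replicate 2). The part of free RNA in the ratios was not tested. In thinned nuclei Cyp2c38 was detected in 84.6% of pericentral and 15.8% of periportal nuclei of aged replicate 1, and 29.8% and 0.788% of those of aged replicate 2. In young replicate 1 it was detected in 35.4% of pericentral and 0 of 441 periportal nuclei, which allows a share of up to 0.833% by the exact binomial interval, and in young replicate 2 in 49.4% and 4.77%. The endothelial-like share was 14.4% and 10.5% in the aged and 0% (0 of 40 nuclei, which allows up to 8.81%) and 18.9% in the young libraries. The pericentral share exceeded it in all 4 libraries, and the periportal share was above it in aged replicate 1 alone, where it lay within the interval of the endothelial-like share, 8.62 to 22.1%.

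Other Cyp2c genes did not all follow. Cyp2c67 (2.04 on the log2 scale) and Cyp2c68 (1.37) were higher in the pericentral parts, Cyp2c70 was lower (-0.22, edgeR adjusted p = 0.0456), and Cyp2c23 was at -0.12 and did not pass (edgeR adjusted p = 0.473). Cyp2c70 had 811 and 950 CPM in the pericentral parts of the aged libraries, against 1005 and 1070 CPM in their periportal parts. In the young libraries it had 3207 and 424 CPM pericentrally, against 3353 and 537 CPM periportally. Cyp2c65 and Cyp2c66 stood below 0.2 CPM in every library and were not tested.

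**Figure D4:**
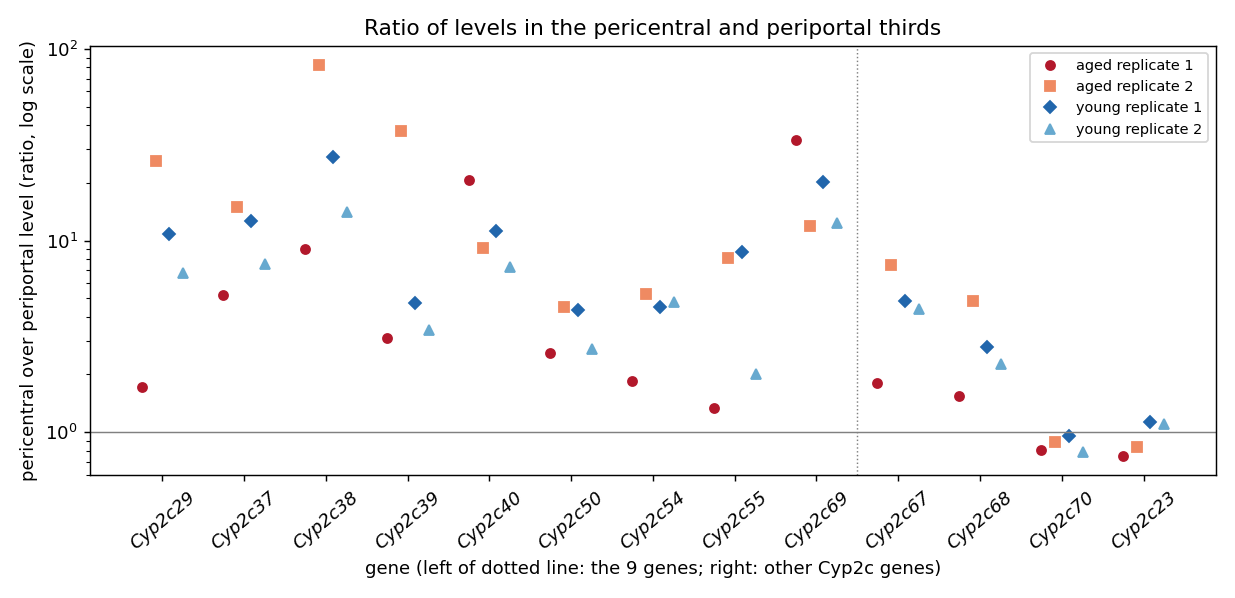
Pericentral over periportal level (ratio, log axis) of the 9 Cyp2c genes and 4 other Cyp2c genes in each library, with the grey line at 1. All 9 genes lie above 1 in all 4 libraries, while Cyp2c70 lies below 1 in all of them.

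Whether the zone difference itself differed between aged and young libraries was tested as an age by zone term. Of 13853 genes 15 passed (0.108%) by edgeR, 11 above 0 (0.0794%) and 4 below (0.0289%), and 814 had an unadjusted p under 0.05. None of the 9 Cyp2c genes passed. Cyp2c40 was at 0.92 on the log2 scale, a larger pericentral excess in the aged libraries (95% interval 0.36 to 1.48, edgeR adjusted p = 0.441), and Cyp2c69 at 0.78 (0.01 to 1.55, edgeR adjusted p = 0.840). Cyp2c29 was at -0.45 (-2.47 to 1.56), its aged libraries being the flattest and the steepest of the 4. Without aged replicate 2 Cyp2c29 was at -2.31, and without aged replicate 1 it was at 1.59. The sign for Cyp2c29 thus depended on which aged library was used. Each of these fits leaves 1 aged library, so the aged group has no spread of its own there.

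Genes that work with or control P450 enzymes were counted by list. Of 10 partners of P450 enzymes, 4 rose in the pericentral parts, against 10.9% of all genes, and 0 fell. Cyb5a, a cytochrome that passes electrons to P450 enzymes, rose by 1.22 on the log2 scale, Por, the P450 reductase, by 0.84, and Cyb5b by 0.51. Of 20 transcriptional regulators and receptors, 8 rose and 2 fell in the pericentral parts. Ahr, the aryl hydrocarbon receptor, rose by 2.52, Nr1i3, the nuclear receptor also called CAR, by 1.89, and Rxra, its partner, by 0.66. Of 20 other P450 genes 6 rose and 3 fell, with Cyp4a14 at 1.79, Cyp27a1 at 1.49 and Cyp2a12 at -0.93. Their medians were 0.39 for the partners, 0.08 for the regulators and 0.12 for the other P450 genes, all under the median of 2.90 over the 9 Cyp2c genes.

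With age, 0 of 10 partners, 0 of 20 regulators and 0 of 20 other P450 genes passed in the edgeR fit, where 2824 of all 15290 genes had an unadjusted p under 0.05 and DESeq2 called 841. By smallest p the partners were led by Hmox1 (-1.37), Cyb5b (-0.86) and Alas1 (-1.09), the regulators by Cebpb (-1.93), Cebpa (-1.07) and Ctnnb1 (-0.72), and the other P450 genes by Cyp8b1 (-2.69), Cyp2a5 (-1.72) and Cyp2b10 (2.22). Of 20 male-biased genes 0 passed with age, 17 being below 0 and 3 above, with a median of -1.72. Those with the smallest p were Cyp4a12a (-1.94), Mup12 (-1.92) and Mup3 (-1.83). Of 20 female-biased genes 11 had counts enough for the test, and 0 passed. All 11 lay above 0 and were highest in aged replicate 1. The filter asked for counts in more than 1 library, so a gene high in that library alone, such as Cyp2b13 (114 CPM there), was left out. Cyp2a22 (4.21), Cyp2b9 (9.42) and Slc22a27 (4.42) had the smallest p. By zone, where 10.9% of all genes rose and 10.8% fell, 10 of 20 male-biased genes rose and 5 fell, led by Serpina1e (-1.47), Susd4 (2.13) and Mup3 (-0.98). Of 14 female-biased genes tested by zone 5 rose and 4 fell, with Cyp2a22 at 2.54 and Cyp2b13 at 1.17 among those that rose. The parts of aged replicate 1 alone could meet the filter of the zone fit. Cyp2b13 rests on that library, with 179 CPM in the pericentral and 82.7 CPM in the periportal part. In the other libraries it was at or below 0.85 CPM, and in young replicate 1 the order was reversed (0.42 against 0.53 CPM). No gene of these lists passed in the age by zone term.

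Across the 12 sums of library and zone part, the pair most alike was Cyp2c40 and Cyp2c69, with a Pearson r of 0.98 between log2(CPM + 1) values. Cyp2c38 and Cyp2c50 followed (0.97), as did Cyp2c50 and Cyp2c54 (0.96), and Cyp2c37 and Cyp2c54 (0.96), whereas Cyp2c40 and Cyp2c55 were at 0.14. The parts of a library share its depth and preparation, so these are descriptions and carry no p. Outside the family and the landmarks, 8214 genes were ranked by the same measure. Rnase4, a secreted ribonuclease gene, was the nearest to Cyp2c50 (0.99) and to Cyp2c54 (0.97). Por was the nearest to Cyp2c37 (0.96), Mbl1, a mannose-binding lectin gene, to Cyp2c38 (0.97), and Cyp4a10, a fatty acid hydroxylase gene, to Cyp2c39 (0.92). Gjb1, the gene of a gap junction protein, was the nearest to Cyp2c40 (0.94) and Sult1d1, a sulfotransferase gene, to Cyp2c69 (0.95). Olfr1033 was the nearest to Cyp2c29 (0.97). The other genes among the 3 nearest were Ptpn9 and Olfr1034 for Cyp2c29, Ncald and Rnase4 for Cyp2c37, Hpgd and Rnase4 for Cyp2c38, Hpgd and Cyp4a14 for Cyp2c39, March6 and Crot for Cyp2c40, Ugt3a2 and Ppm1k for Cyp2c50, Rdh16 and Fermt2 for Cyp2c54, and Gjb1 and Tert for Cyp2c69. Cyp2c55 averaged 3.66 CPM and was too low to rank.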

How the data were processed

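RNA was counted in nuclei of 2 aged and 2 young liver libraries (10x 3′ v2). The authors deposited raw UMI counts per gene and barcode for each library, and the submitters' processing notes name Cell Ranger 7.1.0 and mm10. The handling of intronic reads is not given in the sources used here. Every deposited barcode held at least 500 UMIs.

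Nuclei passed with 500 or more UMIs, 300 or more genes and no more than 5% of UMIs mitochondrial. Scrublet (scanpy 1.11.5) marked 0 doublets automatically, so barcodes with the top scores were dropped, 0.8% for each 1000 barcodes (3927 in all). Counts were scaled to 10000 per nucleus, log transformed, and clustered without integration (2000 variable genes, 30 components, 20 neighbours, Leiden in igraph 0.11.9 at resolution 1). Clusters were named from at least 3 markers by a rule set after the data were seen, and 946 of 33262 kept nuclei stayed unnamed. Names are rebuilt, and no authors' annotation was used. The zone score is a range and not a cell type, and 3 parts of equal size were formed within each library, of which the middle one was not tested.

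Raw counts were summed per library, or per library and part, filtered with filterByExpr, scaled by TMM and tested with edgeR 4.0.16 (R 4.3.3) by quasi-likelihood F tests with Benjamini-Hochberg adjustment over all genes and a threshold of 0.05. The zone fits had the library as a block and left out the landmarks. DESeq2 1.42.0 was an alternative, and the other alternatives changed the scaling, the filters, the zones, the landmarks, the replicates and the replicate block. The fits were run on simulated counts in which libraries shared a common mean, apart from set changes, with a fixed spread. The real libraries of an age differed more, so that run does not show how the fits behave on them. Levels (CPM) are UMIs for each 1000000 UMIs of the sum, without TMM. Intervals of levels and shares are exact at 95% and, like a floor of 3 counts, cover counting error only. The libraries within an age were not duplicates (chi-square over its degrees of freedom was 113.8 for the aged pair and 61.01 for the young pair), so each was counted as 1 replicate. Gene positions came from GENCODE M21 on mm10, in which 32158 of 32285 identifiers (99.6%) had a position.

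All 9 genes are described. Of each list the 3 genes with the smallest p are named (1 of them is not reported here), and for each gene with at least 10 CPM the 3 most alike by Pearson r. The genes and lists were chosen with earlier results of these data known.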

Additional observations from a re-analysis of the deposited data

Results flagged for a closer look

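Cyp2c23, a Cyp2c gene outside the 9, had pericentral over periportal ratios of 0.752 and 0.834 in aged replicates 1 and 2 (mean 0.793), against 1.13 and 1.11 in young replicates 1 and 2 (mean 1.12). The ratio was below 1 in both aged libraries and above 1 in both young ones. The gene was flagged because its ratios differed between the groups. The share of all genes whose ratios separate the groups was not counted. In each young library the counting intervals of the pericentral and periportal levels overlapped, at 83.8 to 109.2 against 72.0 to 98.9 CPM in young replicate 1 and 128.4 to 153.4 against 115.0 to 139.8 CPM in young replicate 2, so the young ratios do not show a difference from 1. The age by zone term was -0.49 on the log2 scale (SE 0.14, edgeR adjusted p = 0.509), which did not pass.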

How the results depend on the processing

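The pericentral direction of the 9 genes held under all 13 alternatives, with 112 of 117 values on the same side of the threshold and 5 no longer past it. With the replicate block and age group in place of the library, 460 genes and 5 of the 9 passed by zone, and Cyp2c29, Cyp2c38, Cyp2c39 and Cyp2c55 did not. Leaving out 1 library gave 2124 to 2735 genes and 8 to 9 of the 9.

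By age, 1478 genes and 2 of the 9 passed with no low count filter, 841 genes with DESeq2, 75 with the replicate block, 2 with a mitochondrial limit of 1% and 38 with no doublet removal. Leaving out 1 library gave 214 to 1377 genes and 0 to 2 of the 9, and the lone library of an age is then assumed to vary like the other group. By age and zone, 184 genes and 1 of the 9 passed with no filter, 1 gene with 4 parts in place of 3, 6 genes and 1 of the 9 with a score from 500 UMIs, 1 of the 9 with 2 parts and 0 genes with the replicate block. Leaving out 1 library gave 0 to 218 genes and 0 to 5 of the 9. Why these counts moved was not tested.

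The replicate numbers did not pair the libraries by any label. The deviations of libraries with the same number correlated at -0.19 over 15290 genes, and with the numbers crossed, an alternative chosen after seeing the data, 7 genes and 0 of the 9 passed by age.

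Signs turned for small or variable values. By age, Cyp2c69 was at -0.97 with the replicate block, -0.98 with it crossed and -0.066 over all kept nuclei. By age and zone, Cyp2c50 was at -0.024 with no filter, -0.055 without the P450 landmarks, -0.060 with the score from 500 UMIs, -0.12 from nuclei with 1000 UMIs and -0.015 with the replicate block. Cyp2c29 and Cyp2c37 were at 0.040 and 0.084 with 2 parts, Cyp2c39 at -0.031 without the P450 landmarks and -0.0070 with the score from 500 UMIs, Cyp2c55 at -0.15 from nuclei with 1000 UMIs, and Cyp2c38 at -0.37 with the replicate block. Leaving out 1 library, the log2 values by age ranged for Cyp2c37 -0.69 to 1.98, Cyp2c38 -0.67 to 2.49, Cyp2c39 -1.14 to 2.21, Cyp2c50 -0.64 to 0.80, Cyp2c54 -0.45 to 0.81, Cyp2c69 -6.05 to 3.88 and Cyp2c40 -7.33 to 3.28. By age and zone they were Cyp2c29 -2.31 to 1.59, Cyp2c37 -0.95 to 0.56, Cyp2c40 -0.33 to 1.44, Cyp2c54 -1.33 to 0.15, Cyp2c69 -0.83 to 1.39, Cyp2c38 -0.94 to 2.24, Cyp2c39 -0.26 to 3.13, Cyp2c50 -0.38 to 0.41 and Cyp2c55 -1.21 to 1.57.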
